A study of Homo sapiens with 12 samples.

Results

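The mRNAs of 40 heat shock proteins, their co-chaperones, the heat shock factors and the subunits of the cytosolic chaperonin were followed in K562 cells given alpha-ketobutyrate (AKB), pyruvate or neither. The members are the rows of the count table whose Ensembl identifiers belong to 40 listed symbols, out of 17786 identifiers in all. They were divided into 16 HSF1-inducible members, 9 other cytosolic members, 4 mitochondrial members, 3 heat shock factors and regulators, and 8 chaperonin subunits. All 40 had a row, and 38 passed the filter on low counts, against 13598 of the 17786 identifiers in the table.

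Cytosolic chaperones hold unfolded proteins in cycles of ATP binding and hydrolysis. The HSP70 proteins act with J-domain proteins and nucleotide exchange factors, and hand clients to HSP90, which finishes kinases and steroid receptors with its own co-chaperones. When unfolded proteins accumulate, the transcription factor HSF1 trimerises, binds heat shock elements and induces many of these genes within hours. The mitochondrial pair HSPD1 and HSPE1 forms the folding chamber of the matrix, and the ring-shaped chaperonin TRiC, built of the TCP1 and CCT subunits, folds actin and tubulin.

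The groups were K562 cells with 2 mM AKB for 24 h, K562 cells with 2 mM pyruvate for 24 h, and untreated K562 cells, each with 4 libraries of poly(A)-selected RNA. K562 is an established line from chronic myelogenous leukaemia, so every value comes from 1 line, and all groups shared RPMI medium with serum and glutamine. AKB and pyruvate are related alpha-keto acids that differ by a methylene group, and both can accept electrons from NADH through lactate dehydrogenase. Whether replicate libraries were grown as separate cultures is not given, so the p-values speak to the spread among these libraries alone, and that spread may be technical. In bulk RNA, a change in the share of cells and a change in RNA per cell cannot be told apart.

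Sequencing depth ran from 15353200 to 21301073 estimated counts per library. The 12 erythroid markers of K562 cells summed to 15900 to 17664 CPM (counts scaled to library size) in AKB libraries, 12443 to 13837 CPM in pyruvate libraries and 14523 to 16177 CPM in untreated libraries. The 3 monocyte and granulocyte markers found, of 6 listed, summed to 42.1 to 52.7, 28.5 to 36.3 and 30.3 to 37.6 CPM in the same order of groups, nearly all of it LYZ. T and B lymphocyte markers stayed at or below 5.56 CPM in sum. The 2 epithelial markers found, of 4 listed, summed to 91.5 to 96.2, 80.6 to 106 and 95.7 to 98.3 CPM, nearly all of it EPCAM. The 3 fibroblast markers found, of 5 listed, summed to 9.32 to 12.1, 7.7 to 9.47 and 7.49 to 10.6 CPM. Not every erythroid marker followed its sum, as KLF1 and GATA1 were above their untreated means in pyruvate replicates 3 and 4. The part of these differences in the results below was not tested. Pyruvate replicates 3 and 4 stood apart from replicates 1 and 2 along the GC content of the transcripts. The counts of calls and many, but not all, named results of the pyruvate comparisons are therefore also given without them. A value given alone is from all 12 libraries and may differ, also in sign, without these replicates.

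The sequences upstream of annotated transcription starts are shown because heat shock elements are the sites through which HSF1 acts. RefSeq windows on GRCh38.p14 were found for 35 of the 40 members, with none for HSPA14, FKBP4, HSF1, STUB1 and CCT6A. The letters searched were GAANNTTC and TTCNNGAA, each of which reads the same on both strands, in the 250 bases before each start. At least 1 such pair of units lay upstream of 16 of 35 members (45.7%), against 14% of 27305 genes and 11.6% of 35116 windows. Runs of 3 alternating units, which contain overlapping pairs, lay upstream of 6 of 35 members (17.1%), namely HSPA8, HSP90AA1, HSP90AB1, HSPD1, DNAJB6 and CHORDC1, against 0.557% of genes. A match describes these letters and is not a measured binding site.

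The table gives HSP90AB1 and DNAJB1 several starts, 3 windows each, and for each of the pair the other 2 windows hold none of the letters searched. The stretches given here are those of the HSP90AB1 window with the longer motif, the DNAJB1 window with pairs, and STIP1 and CDC37, which were called with pyruvate and whose windows hold none of the letters searched. Each is the longest stretch of the window free of any GENCODE 29 exon, read 5′ to 3′ on the strand of the gene, with the matches in capitals. The HSP90AB1, DNAJB1 and CDC37 stretches lie within the annotated genes, before starts inside them. The STIP1 stretch is from the first of 2 windows. HSP90AB1 lies on the plus strand at chr6:44247693-44247865, DNAJB1 on the minus strand at chr19:14518421-14518647, STIP1 on the plus strand at chr11:64185022-64185271 and CDC37 on the minus strand at chr19:10403596-10403792.
HSP90AB1: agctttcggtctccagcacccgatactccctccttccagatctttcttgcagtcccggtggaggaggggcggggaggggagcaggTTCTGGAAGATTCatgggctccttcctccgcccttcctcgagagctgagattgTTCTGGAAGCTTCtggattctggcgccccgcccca
DNAJB1: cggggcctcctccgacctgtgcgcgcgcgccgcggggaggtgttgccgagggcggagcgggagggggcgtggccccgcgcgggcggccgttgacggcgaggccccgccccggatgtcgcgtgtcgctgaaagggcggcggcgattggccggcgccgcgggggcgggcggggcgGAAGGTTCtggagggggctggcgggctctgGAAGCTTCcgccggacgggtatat
STIP1: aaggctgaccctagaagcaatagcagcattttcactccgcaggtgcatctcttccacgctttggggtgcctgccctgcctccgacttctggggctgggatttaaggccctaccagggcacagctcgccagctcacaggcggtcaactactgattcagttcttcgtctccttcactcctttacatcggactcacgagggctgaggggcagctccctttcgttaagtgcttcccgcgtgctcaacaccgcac
CDC37: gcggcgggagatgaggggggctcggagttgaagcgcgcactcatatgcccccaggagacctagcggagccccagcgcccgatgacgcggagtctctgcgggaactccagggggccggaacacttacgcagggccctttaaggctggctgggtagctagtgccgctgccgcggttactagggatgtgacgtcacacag
The HSP90AB1 stretch holds 2 runs of 3 units, and the DNAJB1 stretch holds 2 separate pairs. The HSPE1 window has no match, and all of it lies within annotated exons, so it is not shown. The HSPE1 start lies 105 bases from the first HSPD1 start on the opposite strand, and annotated exons of this pair overlap. The labels do not state a stranded count, so reads from that overlap cannot be told apart.

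HSP90 and HSC70 mRNAs dominated the set. Per kilobase of the principal transcript, HSP90AB1, the constitutive HSP90, averaged 1542 CPM in AKB cells, 1674 CPM in pyruvate cells and 1578 CPM in untreated cells. HSPA8, the constitutive HSP70, followed at 950, 1098 and 1024 CPM per kilobase, and HSP90AA1, the inducible HSP90, at 650, 668 and 679 CPM per kilobase, in the same order of groups. Before division by length, the libraries of HSPA8 and HSP90AA1 overlapped with AKB (2271 to 2498 and 2095 to 2364 CPM). They also overlapped with pyruvate (2350 to 3227 and 1867 to 2611 CPM), but not in untreated cells (2478 to 2562 and 2229 to 2361 CPM). At the other end DNAJB4 and HSPA4L, a J-domain protein and an HSP110 protein, were the lowest of the tested HSF1-inducible members at 9.76 and 8.93 CPM per kilobase in untreated cells. The annotated HSPA4L transcript is 10790 bases long, which lowers its level per length.

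The inducible HSP70 genes HSPA1A and HSPA1B, the classical markers of HSF1 activity, were close to absent from the table. HSPA1A had 17 estimated counts in AKB replicate 4 and 0 in the other libraries. HSPA1B had 5, 0, 0 and 0 counts in AKB replicates 1 to 4, 0, 15, 0 and 5 in pyruvate replicates, and 4, 0, 10 and 0 in untreated replicates. No group was raised throughout, and a count of 0 allows up to 3 counts, or 0.14 to 0.193 CPM, in a library. The pair is nearly identical in coding sequence, so shared reads may be split between them, and whether reads were counted under other identifiers was not tested. Identifiers without a GENCODE 29 entry held 1.8 to 1.97% of the counts.

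No member passed the test with AKB against untreated cells in the fit to all 12 libraries, whose shared spread includes the pyruvate libraries. Of the 38 tested members 0 were higher and 0 lower in the quasi-likelihood test of edgeR (adjusted p below 0.05), against 1.37% higher and 0.603% lower over all genes. At an unadjusted p below 0.05, 0 were higher and 3 lower (HSPD1, CCT2 and DNAJA3). By limma voom 0 were called, and by DESeq2's Wald test 1, which was lower. The matching shares of all genes are not given for these, nor for later counts at an unadjusted p, so the counts have no comparison. The median log2 fold change of the members was −0.042, against 0.006 over all genes tested. The 95% intervals of the members lay between −0.44 and 0.83, and 36 of 38 lay within 0.5 on the log2 scale on either side of 0. In 0 members did all AKB libraries lie above all untreated libraries and in 3 below, against 8.74% and 8.41% of all genes. In 2 further fits given below, HSPD1 and CCT2 were called lower with AKB. These were the fit without pyruvate replicates 3 and 4 and that with an offset for GC content, with 4.31% and 3.49% of all genes lower.

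With pyruvate against untreated cells 3 members rose and 0 fell. They were HSPE1, the lid of the mitochondrial folding chamber, STIP1, which links HSP70 to HSP90, and CDC37, which brings kinases to HSP90. Over all genes 1.02% were called higher and 0.927% lower. The median of the 38 members was 0.056, against −0.008 over all genes, and 28 of 38 intervals lay within 0.5 on either side of 0. The pyruvate libraries lay wholly above the untreated libraries in 6 members and wholly below in 0, against 4.89% and 6% of all genes. With 1 library left out, the number of called members was 0 without pyruvate replicate 3 or 4 or untreated replicate 1, 2 or 3, where 0.00723 to 0.0218% of all genes were called higher and 0.224 to 0.320% lower. It was 1 without AKB replicate 2, 3 or 4, with 0.188 to 0.254% of all genes called higher. Without pyruvate replicate 1 it was 11 higher and 4 lower, against 10.2% and 8.87% of all genes, and without pyruvate replicate 2 it was 9 higher and 5 lower, against 14% and 12.2% of all genes.

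With AKB against pyruvate, at the same dose and time, 0 members were higher and 2 lower, against 1.94% and 1.19% of all genes. The members that were lower with AKB were HSPE1 and DNAJB1, the main J-domain partner of cytosolic HSP70. The median of the 38 members was −0.086, against 0.025 over all genes. The AKB libraries lay wholly above the pyruvate libraries in 0 members and wholly below in 5, against 7.08% and 4.54% of all genes. For the 36 members without a call a difference is not shown to be absent: 30 of the 38 intervals lay within 0.5 on either side of 0, and the widest, that of CDC37, ran from −1.45 to −0.32. With 1 library left out, 0 members were called without AKB replicate 1 or 2, where 0.0507% and 0.0651% of all genes were called lower. Without pyruvate replicate 1, 1 member was higher and 11 lower, against 5.96% and 6.86% of all genes, and without pyruvate replicate 2, 0 were higher and 6 lower, against 6.67% and 8.60%. Without any 1 of the other 8 libraries 1 member was called lower. This was the single pair of compounds compared, so no further adjustment over pairs was made. Both treatments share the 4 untreated libraries, and the pyruvate libraries enter the last 2 comparisons.

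**Figure D1:**
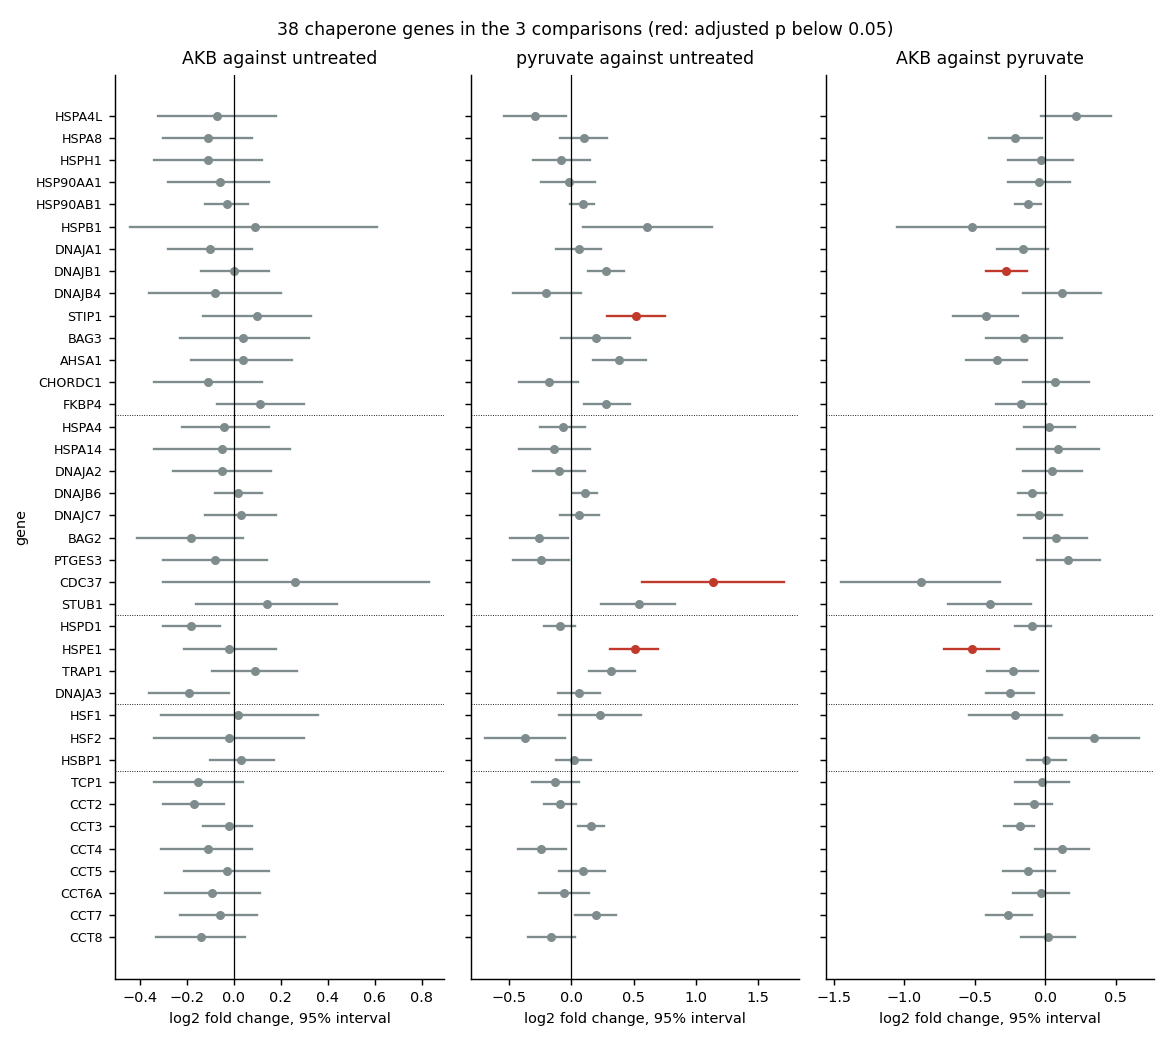
Log2 fold change with its 95% interval for the 38 tested members (rows, grouped from top as HSF1-inducible, other cytosolic, mitochondrial, heat shock factors and chaperonin) in the 3 comparisons; red marks an adjusted p below 0.05. No member is red with AKB against untreated, HSPE1, STIP1 and CDC37 are red to the right with pyruvate against untreated, and HSPE1 and DNAJB1 are red to the left with AKB against pyruvate; the horizontal scales of the panels differ.

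The 4 pyruvate libraries did not move together. Counted over the 38 members, 14 lay above all untreated libraries in pyruvate replicate 1 and 26 in replicate 2, with 1 and 2 below. In replicate 3, 17 lay above and 21 below, and in replicate 4, 15 above and 21 below. Over all genes 22.2%, 26.0%, 38% and 38.2% lay above in replicates 1 to 4 and 22.3%, 26.8%, 40.4% and 40.6% below. Thus replicate 2 had 68.4% of the members above all untreated libraries, while replicates 3 and 4 had both directions. In the AKB libraries 2, 1, 10 and 5 members lay above all untreated libraries and 15, 24, 14 and 12 below, against 25.7%, 27.8%, 28.7% and 26.9% of all genes above and 25.7%, 26.3%, 28.2% and 25.5% below.

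**Figure D2:**
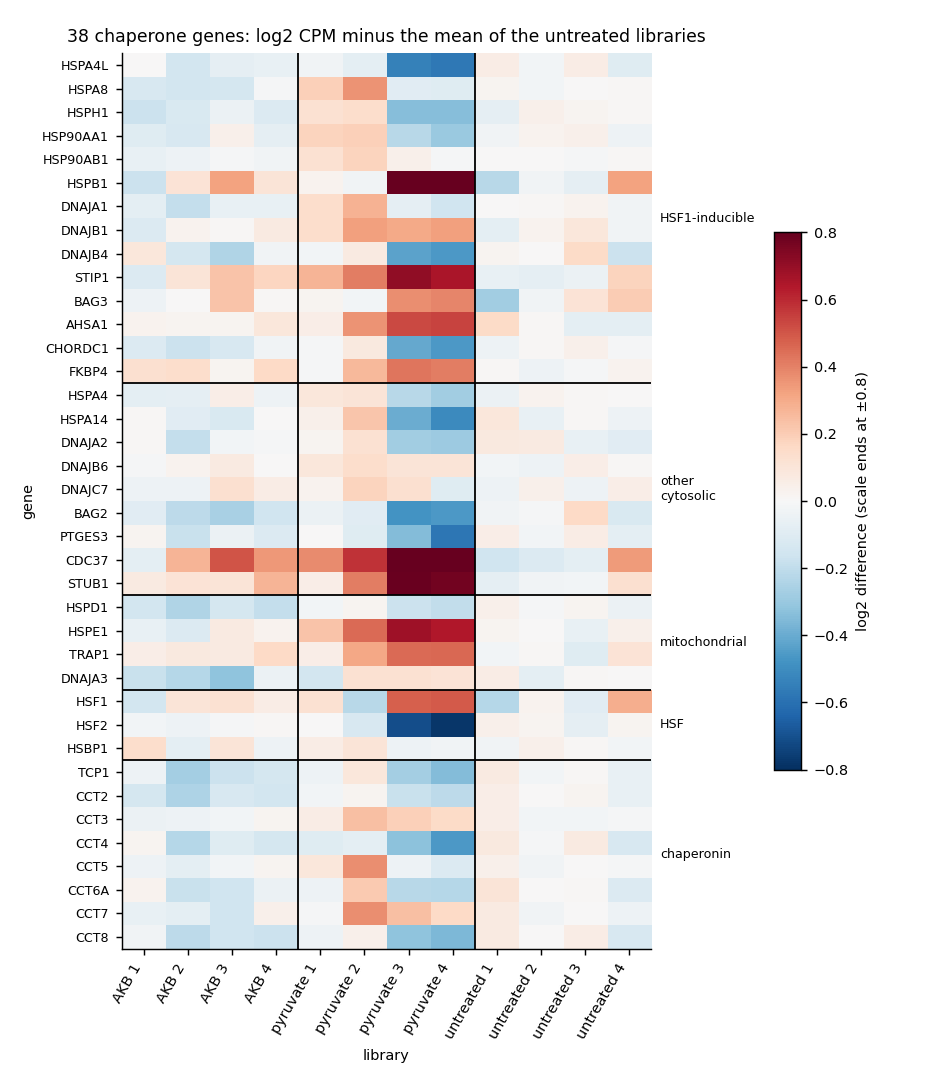
Log2 CPM of the 38 tested members minus their mean in the untreated libraries, by library (columns: AKB, pyruvate, untreated, replicates 1 to 4) and by gene (rows, in 5 groups); the colour scale ends at ±0.8. Pyruvate replicates 3 and 4 show strong colours of both signs, while replicates 1 and 2 are mostly pale red, with 14 and 26 members above all untreated libraries.

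Within the pyruvate group the split followed GC content. Across the 38 members the difference of replicates 3 and 4 from replicates 1 and 2 had a Spearman correlation of 0.912 with the GC content of the longest transcript, and 0.772 across 13047 genes. These are descriptions over genes that share the same 4 libraries. Of 15 members with at least 50% GC, 14 were higher in replicates 3 and 4, and of 23 members below 50%, 0 were. For each comparison a fit with an offset for GC content and a fit leaving out replicates 3 and 4 follow.

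**Figure D3:**
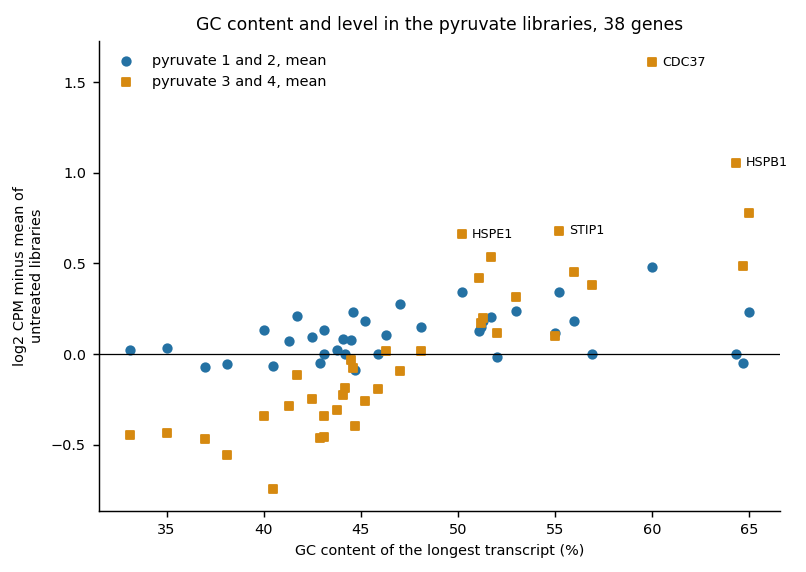
GC content of the longest transcript (horizontal, %) against log2 CPM minus the mean of the untreated libraries (vertical) for the 38 members, as the mean of pyruvate replicates 1 and 2 (circles) and of replicates 3 and 4 (squares). The squares climb with GC content, with CDC37 at the top, while the circles stay nearer to 0.

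With the GC-content offset the counts over the 38 members were larger in all 3 comparisons. Pyruvate against untreated then gave 8 higher and 0 lower, against 5.51% and 4.18% of all genes: HSPE1, STIP1 and CDC37 again, with DNAJA1, DNAJB1, AHSA1, FKBP4 and CCT5. AKB against pyruvate gave 0 higher and 15 lower, against 7.47% and 7.02% of all genes. AKB against untreated gave 0 higher and 2 lower, HSPD1 and CCT2, against 4.91% and 3.49%.

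Without pyruvate replicates 3 and 4, pyruvate against untreated gave 1 higher member, HSPA8, and 0 lower, against 0.151% and 0.560% of all genes, and none of the 3 first calls passed. AKB against pyruvate gave 0 higher and 8 lower, against 2.52% and 1.84%, with HSPE1 again and DNAJB1 not among them. AKB against untreated gave 0 higher and 2 lower, again HSPD1 and CCT2, against 4.86% and 4.31%. The pyruvate arm of this fit has 2 libraries.

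**Figure D4:**
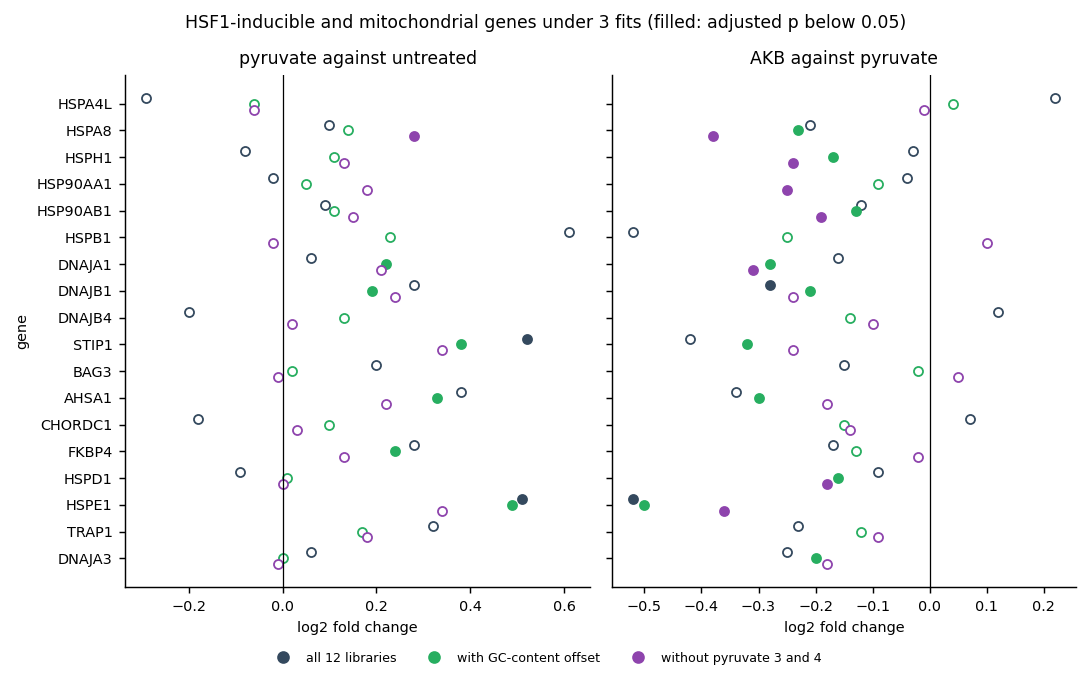
Log2 fold changes of the 14 tested HSF1-inducible and 4 mitochondrial members with pyruvate against untreated (left) and AKB against pyruvate (right), in 3 fits: all 12 libraries, the offset for GC content, and pyruvate replicates 3 and 4 left out; filled points passed an adjusted p of 0.05. HSPE1 is filled in all 3 fits with AKB against pyruvate, and HSPB1 with pyruvate against untreated stands at 0.61 with all libraries and −0.02 without replicates 3 and 4.

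Among the 14 tested HSF1-inducible members, 0 passed with AKB against untreated in the fit to all 12 libraries (median −0.048). STIP1 rose with pyruvate (median 0.093), and DNAJB1 was lower with AKB than with pyruvate (median −0.154). With the GC-content offset the members higher and lower were 0 and 0, 5 and 0, and 0 and 7 in the 3 comparisons. Without pyruvate replicates 3 and 4 they were 0 and 0, 1 and 0, and 0 and 5. Over all genes, the offset gave 5.51% higher with pyruvate and 7.02% lower with AKB than with pyruvate. Without those replicates these shares were 0.151% and 1.84%. HSPA8 stood at 2310, 2271, 2281 and 2498 CPM in AKB replicates 1 to 4, 2872, 3227, 2367 and 2350 CPM in pyruvate replicates and 2562, 2478, 2514 and 2531 CPM in untreated replicates. Pyruvate replicates 1 and 2 were above every other library and replicates 3 and 4 below all untreated ones. HSPA8 therefore had a log2 change of 0.10 (SE 0.0872, adjusted p = 0.433) with pyruvate against untreated, and 0.28 (SE 0.0517, adjusted p = 0.0421) without replicates 3 and 4. Against pyruvate, AKB gave −0.21 (95% interval −0.40 to −0.02, adjusted p = 0.171) with all libraries and −0.38 (adjusted p = 0.00577) without those replicates.

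HSP90AA1 had 2132, 2095, 2364 and 2191 CPM with AKB, 2593, 2611, 1962 and 1867 CPM with pyruvate, and 2241, 2341, 2361 and 2229 CPM in untreated replicates. Pyruvate replicates 1 and 2 lay above all the other libraries and replicates 3 and 4 below them. Its log2 change was −0.06 with AKB and −0.02 with pyruvate against untreated. With pyruvate against untreated it ran from −0.10 to 0.18 over 24 settings. With AKB against pyruvate the change was −0.04 (95% interval −0.26 to 0.18), which became −0.25 (adjusted p = 0.0207) without pyruvate replicates 3 and 4. HSPH1, an HSP110 exchange factor for HSP70, showed the same split, with 198, 205, 215 and 205 CPM with AKB, 242, 246, 176 and 176 CPM with pyruvate, and 212, 228, 226 and 224 CPM in untreated replicates. HSP90AB1 had 4058, 4090, 4194 and 4146 CPM with AKB, 4581, 4789, 4342 and 4190 CPM with pyruvate, and 4211, 4221, 4190 and 4254 CPM in untreated replicates. Its AKB libraries overlapped the lower pyruvate and untreated libraries by a few CPM, and its log2 change with AKB against pyruvate was −0.12 (95% interval −0.21 to −0.03, adjusted p = 0.116). HSP90AB1 and HSPH1 were both called lower with AKB than with pyruvate under the offset (−0.13, adjusted p = 0.0199, and −0.17, adjusted p = 0.0314) and without pyruvate replicates 3 and 4 (−0.19, adjusted p = 0.0115, and −0.24, adjusted p = 0.0172).

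DNAJB1 had 78.5, 86.4, 85.2 and 88.7 CPM with AKB, 93.1, 106, 104 and 106 CPM with pyruvate, and 79.9, 86.1, 89.7 and 82.5 CPM in untreated replicates. All 4 pyruvate libraries lay above all AKB and all untreated libraries. DNAJB1 was 1.21-fold lower with AKB than with pyruvate (log2 −0.28, SE 0.0666, 95% interval −0.42 to −0.13, adjusted p = 0.0479) and had a log2 change of 0.28 (adjusted p = 0.0536) with pyruvate against untreated. Leaving out any 1 of 10 libraries, that is any but pyruvate replicates 1 and 2, ended the first call (adjusted p 0.0651 to 0.145), as did leaving out pyruvate replicates 3 and 4 together (log2 −0.24, adjusted p = 0.0806). With the GC-content offset the first call held, and DNAJB1 was also called higher with pyruvate against untreated.

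STIP1 had 261, 301, 329 and 316 CPM with AKB, 339, 375, 460 and 443 CPM with pyruvate, and 271, 268, 272 and 320 CPM in untreated replicates. The pyruvate libraries all lay above the other 8, with replicates 3 and 4 highest. STIP1 rose 1.43-fold with pyruvate against untreated (404 ± 56.9 against 283 ± 25.0 CPM, SD, n = 4 each, log2 0.52, SE 0.106, adjusted p = 0.0374). The adjusted p was 0.054 to 0.133 with any 1 of 8 libraries left out (AKB replicates 2, 3 and 4, pyruvate replicates 3 and 4, and untreated replicates 1, 2 and 3), and 0.14 at a log2 change of 0.34 without pyruvate replicates 3 and 4. With AKB against pyruvate its log2 change was −0.42 (95% interval −0.65 to −0.19, adjusted p = 0.053), and ran from −0.50 to −0.24 over 24 settings. It passed without pyruvate replicate 1 or 2 (adjusted p 0.013 to 0.0285) and with the GC-content offset. Without pyruvate replicates 3 and 4 together STIP1 was not called in that comparison.

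HSPB1, a small heat shock protein, had 128, 155, 180 and 154 CPM with AKB, 146, 140, 307 and 291 CPM with pyruvate, and 124, 141, 137 and 179 CPM in untreated replicates. Only pyruvate replicates 3 and 4 stood out, and its transcript holds 64.3% GC. Its log2 change with pyruvate was 0.61 (SE 0.241, adjusted p = 0.133) with all libraries and −0.02 without those replicates, and it passed without pyruvate replicate 1 or 2 (adjusted p 0.0305 to 0.0408). The remaining 7 tested HSF1-inducible members (HSPA4L, DNAJA1, DNAJB4, BAG3, AHSA1, CHORDC1 and FKBP4) had changes from −0.29 for HSPA4L to 0.38 for AHSA1 with pyruvate. With AKB they ran from −0.11 for CHORDC1 to 0.11 for FKBP4, and none was called in the fit to all 12 libraries. With the GC-content offset DNAJA1, AHSA1 and FKBP4 were called higher with pyruvate against untreated, and AHSA1 lower with AKB than with pyruvate. DNAJA1, another J-domain partner of HSP70, passed with AKB against pyruvate with the GC-content offset (log2 −0.28, adjusted p = 0.00136) and without pyruvate replicates 3 and 4 (−0.31, adjusted p = 0.011), against −0.16 (adjusted p = 0.261) with all libraries.

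**Figure D5:**
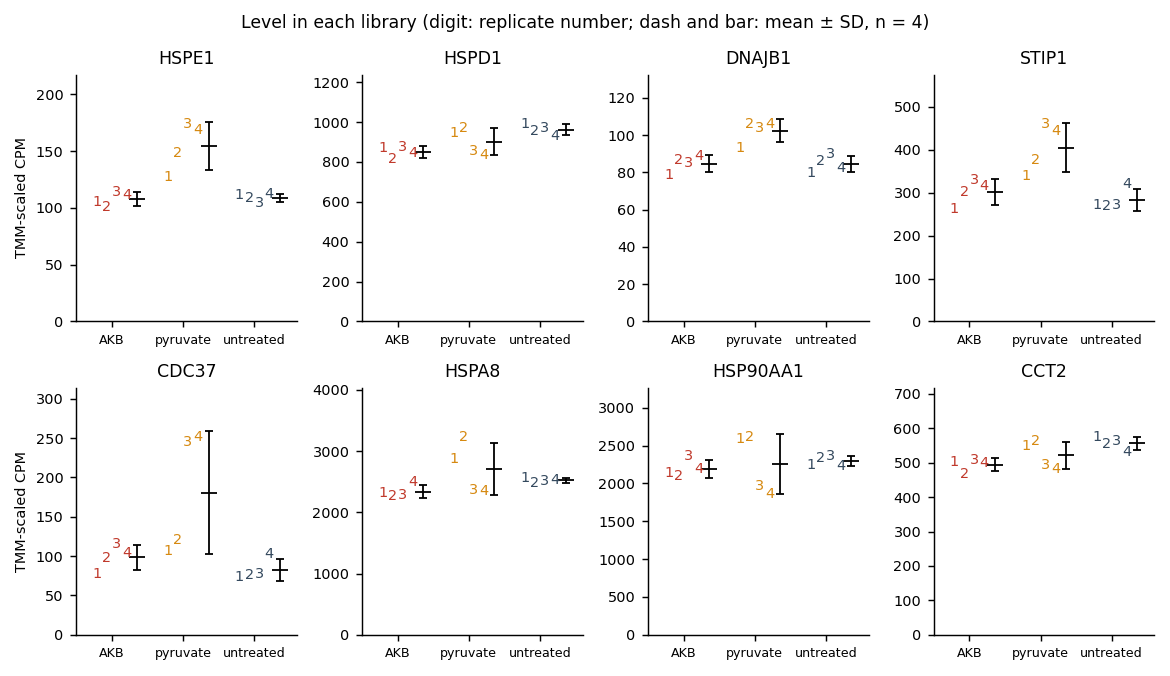
TMM-scaled CPM of 8 members in each library, drawn as its replicate number, for AKB, pyruvate and untreated cells; the dash and bar give the mean ± SD of 4 libraries. In HSPE1, DNAJB1, STIP1 and CDC37 all pyruvate libraries lie above all untreated ones, and in HSPA8 and HSP90AA1 pyruvate replicates 1 and 2 lie above and replicates 3 and 4 below the untreated libraries.

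In the fit to all 12 libraries HSPE1, of the 4 mitochondrial members, rose with pyruvate and was lower with AKB than with pyruvate. The other 3 did not pass there. HSPE1 had 105, 101, 114 and 111 CPM with AKB, 127, 148, 174 and 169 CPM with pyruvate, and 111, 109, 104 and 112 CPM in untreated replicates. Each pyruvate library, replicates 1 and 2 included, was above all the others. HSPE1 rose 1.42-fold with pyruvate against untreated (155 ± 21.5 against 109 ± 3.37 CPM, SD, n = 4 each, log2 0.51, SE 0.0906, adjusted p = 0.0206). That call ended without pyruvate replicate 3 or 4 or without untreated replicate 1, 2 or 3 (adjusted p 0.0723 to 0.101), and without both pyruvate replicates the log2 change was 0.34 (adjusted p = 0.0515).

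HSPE1 with AKB against pyruvate had a log2 change of −0.52 (SE 0.0907, 95% interval −0.72 to −0.33, adjusted p = 0.014). The call held under the offset (−0.50, adjusted p = 0.00255) and without pyruvate replicates 3 and 4 (−0.36, adjusted p = 0.0191), and ended without AKB replicate 1 or 2 (adjusted p 0.0569 to 0.0635). With AKB against untreated its log2 change was −0.02 (95% interval −0.21 to 0.18).

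HSPD1, whose protein forms the chamber that HSPE1 closes, had 870, 813, 875 and 845 CPM with AKB, 947, 973, 854 and 836 CPM with pyruvate, and 991, 956, 973 and 932 CPM in untreated replicates. All AKB libraries lay below all untreated libraries, while the pyruvate libraries overlapped both. Its log2 change with AKB against untreated was −0.18 (SE 0.056, 95% interval −0.30 to −0.06, adjusted p = 0.159), which passed with the GC-content offset (−0.15, adjusted p = 0.0137) and without pyruvate replicates 3 and 4 (−0.18, adjusted p = 0.01). With pyruvate against untreated it was −0.09 (adjusted p = 0.267), and ran from −0.13 to 0.01 over 24 settings. With AKB against pyruvate it was −0.09 (95% interval −0.21 to 0.04, adjusted p = 0.362) with all libraries, and HSPD1 was called lower under the offset (−0.16, adjusted p = 0.00784) and without pyruvate replicates 3 and 4 (−0.18, adjusted p = 0.0425), as HSPE1 was.

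TRAP1, the mitochondrial HSP90, had 290, 295, 294 and 313 CPM with AKB, 289, 346, 381 and 384 CPM with pyruvate, and 276, 281, 261 and 301 CPM in untreated replicates. Its pyruvate replicate 1 fell among the untreated libraries, and its log2 change with pyruvate was 0.32 (SE 0.084, adjusted p = 0.0629), with an adjusted p of 0.00448 to 0.0297 without pyruvate replicate 1 or 2, and was 0.18 (adjusted p = 0.286) without replicates 3 and 4. DNAJA3, a mitochondrial J-domain protein, had 99.9, 97.1, 90.8 and 110 CPM with AKB, 102, 123, 124 and 123 CPM with pyruvate, and 119, 107, 115 and 114 CPM in untreated replicates. The AKB libraries were mostly the lowest and overlapped both other groups, at a log2 change of −0.19 against untreated (adjusted p = 0.312) and −0.25 against pyruvate (95% interval −0.42 to −0.08, adjusted p = 0.0903, 0.0171 without pyruvate replicate 1, 0.0449 under the offset, and 0.237 at −0.18 without replicates 3 and 4).

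Of the 8 chaperonin subunits 0 passed in each of the 3 comparisons by edgeR, and at an unadjusted p below 0.05 there were 0 higher and 1 lower with AKB against untreated, 2 higher and 1 lower with pyruvate against untreated, and 0 higher and 2 lower with AKB against pyruvate. With the offset for GC content these counts of calls were 0 and 1 (CCT2), 1 (CCT5) and 0, and 0 and 4 (CCT2, CCT3, CCT5 and CCT7). Without pyruvate replicates 3 and 4 they were 0 and 1 (CCT2), 0 and 0, and 0 and 1 (CCT5). With AKB against untreated all 8 estimates were below 0 (−0.17 for CCT2 to −0.02 for CCT3, median −0.102, intervals between −0.34 and 0.15). AKB replicate 2 had all 8 subunits below every untreated library, and replicates 1, 3 and 4 had 4, 6 and 4. The median log2 change was −0.076 with pyruvate against untreated and −0.054 with AKB against pyruvate.

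TCP1, the alpha subunit, had 983, 839, 894 and 912 CPM with AKB, 978, 1075, 839 and 790 CPM with pyruvate, and 1057, 992, 1017 and 970 CPM in untreated replicates. The AKB libraries lay low but overlapped the untreated range through replicate 1, at a log2 change of −0.15 (SE 0.0877, adjusted p = 0.499). CCT2, the beta subunit, had 503, 466, 508 and 500 CPM with AKB, a mean of 521 ± 40.3 CPM with pyruvate (SD, n = 4), and 574, 555, 563 and 532 CPM in untreated replicates. Here every AKB library was below every untreated one, with a log2 change of −0.17 (SE 0.0601, adjusted p = 0.229) that passed with the GC-content offset (−0.15, adjusted p = 0.0201) and without pyruvate replicates 3 and 4 (−0.17, adjusted p = 0.0194). CCT3, the gamma subunit, had pyruvate libraries wholly above the untreated ones (636 ± 33.2 against 570 ± 13.0 CPM, SD, n = 4 each, log2 0.16, adjusted p = 0.085, and 0.15, adjusted p = 0.206, without replicates 3 and 4).

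Each ring of the chaperonin holds its subunits in equal amounts, while their mRNA levels differed. Per kilobase of the principal transcript, CCT8 stood at 411, 405 and 454 CPM in AKB, pyruvate and untreated cells, and TCP1 at 363, 368 and 404 CPM. The other 6 lay between 203 and 261 CPM with AKB, 187 and 296 CPM with pyruvate, and 220 and 272 CPM in untreated cells, with CCT4 lowest in each group. In untreated cells CCT2 and CCT3 (272 and 265 CPM per kilobase) and likewise CCT5 and CCT4 (222 and 220 CPM per kilobase) were neighbours whose libraries overlapped. The principal transcript of CCT5 is 3675 bases long, which lowers its level per length. Before that division CCT5 averaged 816 CPM in untreated cells, below TCP1 (1009 CPM) and CCT8 (910 CPM) alone.

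HSF1, HSF2 and HSBP1, which encode the heat shock factor, its relative and a protein that binds the factor, had no call. HSF1 had 75.8, 90.2, 91.7 and 87.7 CPM with AKB, 91.4, 72.2, 118 and 118 CPM with pyruvate, and 71.9, 85.9, 79.3 and 103 CPM in untreated replicates. Only pyruvate replicates 3 and 4 stood above the rest. The log2 change of HSF1 was 0.02 with AKB (95% interval −0.31 to 0.36) and 0.23 with pyruvate (adjusted p = 0.306, and −0.05 without those replicates). HSF2 did not pass either, at a log2 change of −0.37 with pyruvate (adjusted p = 0.135) and −0.06 without replicates 3 and 4.

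Of the 9 other cytosolic members, CDC37 rose with pyruvate. It had 76.6, 98.1, 115 and 104 CPM with AKB, 106, 121, 245 and 251 CPM with pyruvate, and 72.8, 75.4, 76.7 and 103 CPM in untreated replicates. Replicates 3 and 4 of pyruvate held more than any other library, and replicate 1 exceeded the highest untreated library by a few CPM only. CDC37 rose 2.21-fold (181 ± 77.9 against 82.0 ± 14.1 CPM, SD, n = 4 each, log2 1.14, SE 0.262, adjusted p = 0.0486). Leaving out any 1 library other than pyruvate replicates 1 and 2 ended the call (adjusted p 0.0556 to 0.156), and without pyruvate replicates 3 and 4 the log2 change was 0.47 (adjusted p = 0.207).

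The other 8 cytosolic members (HSPA4, HSPA14, DNAJA2, DNAJB6, DNAJC7, BAG2, PTGES3 and STUB1) had changes between −0.18 for BAG2 and 0.14 for STUB1 with AKB, and between −0.26 for BAG2 and 0.54 for STUB1 with pyruvate. DNAJB6, a J-domain protein, had pyruvate libraries at 232, 241, 234 and 233 CPM, wholly above the AKB range of 217 to 228 CPM and the untreated range of 212 to 226 CPM. Its log2 change with pyruvate was 0.11 (SE 0.0464, adjusted p = 0.156), and 0.12 (adjusted p = 0.235) without replicates 3 and 4. STUB1, the ubiquitin ligase that acts on chaperone clients, reached an adjusted p of 0.0602 with pyruvate, with a transcript of 65% GC, and had a log2 change of 0.24 (adjusted p = 0.288) without replicates 3 and 4.

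Further genes of the same pathways were taken from lists of general knowledge. Of 19 tested HSF1 targets that are not members, 0 passed in any of the 3 comparisons (lowest adjusted p 0.0767 with AKB, 0.089 with pyruvate, and 0.112 for AKB against pyruvate). At an unadjusted p below 0.05 there were 1 higher and 1 lower, 3 higher and 1 lower, and 0 higher and 2 lower. Without pyruvate replicates 3 and 4, JUN was called lower with AKB against untreated (log2 −0.60, adjusted p = 0.0121), and 0 were called in the other comparisons. Under the offset JUN was called lower with AKB (−0.64, adjusted p = 0.0027) and with pyruvate (−0.53, adjusted p = 0.0111) against untreated. Likewise under the offset CRY2 was lower (−0.22, adjusted p = 0.0422) and MRPL18 higher (0.25, adjusted p = 0.0275) with pyruvate against untreated, and MRPL18 was lower with AKB than with pyruvate (−0.22, adjusted p = 0.0333). Of 20 further co-chaperones 0 passed with AKB against untreated by edgeR (unadjusted p below 0.05 in 1 higher and 1 lower), 0 with AKB against pyruvate (0 higher and 4 lower), and 3 rose with pyruvate against untreated: NUDC (243 ± 77.0 against 133 ± 15.5 CPM, SD, n = 4 each, adjusted p = 0.0434), PPP5C (103 ± 18.3 against 71.0 ± 4.15 CPM, adjusted p = 0.0452) and DNAJB11 (78.7 ± 6.14 against 60.9 ± 1.74 CPM, adjusted p = 0.0206). NUDC and PPP5C are HSP90 co-chaperones, and DNAJB11 serves the HSP70 of the endoplasmic reticulum. In NUDC pyruvate replicates 3 and 4 stood at 313 and 304 CPM, and at 163 and 191 CPM in replicates 1 and 2. Without replicates 3 and 4, NUDC and PPP5C did not pass, DNAJB11 did, and HSP90B1, the HSP90 of the endoplasmic reticulum, passed as well (log2 0.31, adjusted p = 0.0226). In that fit HSP90B1 (0.19, adjusted p = 0.0195) and UNC45A (0.19, adjusted p = 0.0336) were called higher with AKB against untreated, and 1 co-chaperone, DNAJC2, was lower with AKB than with pyruvate. Under the offset HSP90B1 was higher (0.24, adjusted p = 0.0199) and HSPBP1 lower (−0.24, adjusted p = 0.0177) with AKB against untreated. In that fit NUDC, PPP5C and DNAJB11 were lower with AKB than with pyruvate. Pyruvate against untreated gave 6 higher there and 0 lower, against 5.51% and 4.18% of all genes. The 6 were ST13, PPP5C, NUDC, DNAJB11, HSPA5 and also HSP90B1 (0.28, adjusted p = 0.0112).

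The authors' deposited table for untreated over AKB called 2 members, HSPD1 (log2 0.19, adjusted p = 6.74e-05) and CCT2 (log2 0.16, adjusted p = 0.0248), both higher in untreated cells, against 4.90% of its genes. The authors' deposited table for untreated over pyruvate called 9, against 12% of its genes, of which 7 were higher with pyruvate and 2 higher in untreated cells. The authors' deposited table for AKB over pyruvate called 6, against 10% of its genes, with 1 higher with AKB and 5 higher with pyruvate. HSPE1 had a log2 value of −0.67 in the authors' deposited table for untreated over pyruvate and −0.67 in that for AKB over pyruvate, both called. For CCT7 the authors' deposited table gave 0.42 for untreated over pyruvate (adjusted p = 0.00597), that is lower with pyruvate, while edgeR gave 0.20 for pyruvate against untreated. DNAJB4 and CHORDC1 likewise differed in direction, at −0.27 and −0.22 for untreated over pyruvate in the authors' deposited table and at −0.20 and −0.18 for pyruvate against untreated by edgeR, or 0.13 and 0.10 with the GC-content offset.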

How the data were processed

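Poly(A)-selected RNA of 12 K562 libraries was sequenced, and groups and replicate numbers came from the sample titles and treatment labels. The deposited table holds expected counts that the authors estimated per gene, as Salmon 1.2.1 is named in the submitters' processing notes, along with DESeq2 1.26.0 and R 3.6.3; genome build, annotation and settings, not given in the sources used here, remain unknown. Rounding these estimated counts changed 0 values. Per the file headers, the authors' 3 comparison tables give a mean normalised signal, log2 fold changes and their standard errors, a Wald test score, and p-values with adjusted p-values. All 12 count columns were tied to a library.

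Total counts were 15353200 to 21301073 per library, and the limits on counts of 0 cover counting error only. With R 4.3.3, edgeR 4.0.16 kept genes by filterByExpr by group (minimum count 10), scaled by TMM and fitted the quasi-likelihood test to all 12 libraries with 1 term per group, which left 13598 genes. A call is a Benjamini-Hochberg adjusted p below 0.05 over all these genes. Unless another tool is named, every adjusted p is from that test, the SE is the log2 change over the root of F, and 95% intervals use the t distribution. Levels are TMM-scaled CPM, with a prior count of 2 on the log2 scale; levels per kilobase use the principal transcript of GENCODE 29. GC content is that of the longest transcript, and the offset is a lowess curve (span 0.3) per library.

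Alternatives were DESeq2 1.42.0 (size factors, Wald test), limma 3.58.1 voom, library size alone, other filters, the replicate block, the GC-content offset, left-out libraries, and the libraries of each contrast alone. Several fits were tested on simulated data, with changes placed in AKB libraries alone and read with AKB against untreated. Those data held no split by GC content, so they cannot speak to the pyruvate comparisons or to that split. Replicate pairs all differed by more than sampling noise. Values per library are given for called members and 14 named by rule, called or not (the inducible and constitutive HSP70 and HSP90 genes, HSPH1, DNAJB1, HSPB1, the mitochondrial members, TCP1 and HSF1), and up to 4 called genes per further list; CCT2, CCT3, DNAJB6, DNAJA1, HSF2, STUB1, JUN, CRY2, MRPL18, HSP90B1, UNC45A, DNAJC2 and HSPBP1 were picked after their values were seen. The members, lists, named genes and alternatives were chosen with earlier results of these data known.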

Additional observations from a re-analysis of the deposited data

Results flagged for a closer look

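In each group of 4 libraries a member was examined for a highest or lowest library set far apart from the other 3. This marked 10 of 114 cases, and chance marks about 1 in 20. In AKB cells HSPA8 was high in replicate 4 (2498 CPM), as was AHSA1 (87.7 CPM), and DNAJA1 and DNAJA2 were low in replicate 2 (267 and 88.6 CPM). In pyruvate cells DNAJA3 and DNAJB1 were low in replicate 1 (102 and 93.1 CPM), and DNAJB6 was high in replicate 2 (241 CPM). In untreated cells STIP1 and CDC37 were high in replicate 4 (320 and 103 CPM), and CCT3 was high in replicate 1 (589 CPM).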

How the results depend on the processing

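Counts of called members moved by more than 1.5 times under several settings. AKB against untreated, 0 as reported, gave 1 with DESeq2's Wald test, 2 with the GC-content offset, 2 with the replicate block and the offset, 2 without pyruvate replicates 3 and 4, and 2 with the 8 libraries of the contrast alone. Pyruvate against untreated, 3 as reported, gave 10, 8, 7, 1 and 0 under the same settings in that order. AKB against pyruvate, 2 as reported, gave 10, 15, 14, 8 and 0 under those settings. It gave 4 with DESeq2 size factors in edgeR, 1 with library size alone and 1 with no filter on low counts. Shares called over all genes are given above for the offset and for the fit without pyruvate replicates 3 and 4. For the other settings named here they are not given, so those counts do not show whether members moved more than all genes. With 1 library left out the counts ran from 0 to 0, 0 to 15 and 0 to 12 in the 3 comparisons. The 0 came without pyruvate replicate 3 or 4 or untreated replicate 1, 2 or 3 for pyruvate against untreated, and without AKB replicate 1 or 2 for AKB against pyruvate; the 15 and 12 came without pyruvate replicate 1. The cause of these changes was not tested.

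The replicate block gave 0, 6 and 3 called members in the 3 comparisons, again without the share called over all genes. Same-numbered libraries of different groups correlated at −0.0996 to 0.202 in their deviations from group means, so the numbers were not taken to pair them.

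For 14 members in 3 comparisons under 24 settings, 909 of the estimates kept their side of the threshold, 51 gained a call and 48 lost one. No called value changed sign, and 60 uncalled estimates did. The median of all genes stayed within 0.044 of 0 on the log2 scale under the 3 scalings tried. Low counts limit HSPA1A and HSPA1B, whose sum did not change any of these counts.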

Other observations

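The lists of chaperonin partners and clients, of 9 and 13 tested genes, held calls in both directions. Prefoldin hands unfolded actin and tubulin to the chaperonin. PFDN5 rose with pyruvate against untreated (120 ± 19.1 against 76.1 ± 8.96 CPM, SD, n = 4 each, adjusted p = 0.0241), and PFDN2 was lower with AKB than with pyruvate (37.3 ± 2.72 against 56.1 ± 10.7 CPM, adjusted p = 0.0297), as was PDCL3 (log2 −0.37, adjusted p = 0.05). These 3 calls ended without pyruvate replicates 3 and 4 (log2 0.48, −0.38 and −0.32 with adjusted p of 0.0965, 0.0763 and 0.115) and held with the offset for GC content. Among the tubulins TUBA1A, an alpha-tubulin, rose with AKB against untreated (22 ± 0.948 against 16.6 ± 0.607 CPM, log2 0.41, adjusted p = 0.034) and was higher with AKB than with pyruvate (22 ± 0.948 against 13.5 ± 1.43 CPM, log2 0.71, adjusted p = 0.00314), as was TUBA4A (log2 0.33, adjusted p = 0.0135). Both also passed without pyruvate replicates 3 and 4. With pyruvate against untreated TUBB rose (1417 ± 97.3 against 1145 ± 60.4 CPM, adjusted p = 0.049) and TUBA1C fell (964 ± 54.3 against 1154 ± 27.7 CPM, adjusted p = 0.0407). Neither passed without replicates 3 and 4 (log2 0.22 and −0.22 with adjusted p of 0.2 and 0.138).

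Of 16 further mitochondrial quality control genes, GRPEL2, an exchange factor for the mitochondrial HSP70, fell with pyruvate against untreated (59.2 ± 6.09 against 86.4 ± 4.65 CPM, SD, n = 4 each, log2 −0.55, adjusted p = 0.00966, and −0.43, adjusted p = 0.0251, without replicates 3 and 4). All 4 pyruvate libraries, at 65.2, 63.2, 52.1 and 56.1 CPM, were low. With AKB against untreated GRPEL2 had a log2 change of −0.32 (adjusted p = 0.0763). It was called lower there under the offset (−0.27, adjusted p = 0.0153) and without pyruvate replicates 3 and 4 (−0.33, adjusted p = 0.00714). In each of those fits 2 of the 16 genes were called lower with AKB, GRPEL2 and HSPA9, against 3.49% and 4.31% of all genes. With AKB against pyruvate GRPEL2 had 0.22 (adjusted p = 0.137). The peptidase PITRM1 was lower with AKB than with pyruvate (83.1 ± 2.57 against 99.2 ± 2.09 CPM, adjusted p = 0.0386, and 0.0297 without replicates 3 and 4). Pseudogenes of the members held few counts: the highest, HSPA8P8, averaged 2.86 CPM against 2522 CPM for HSPA8.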
